A study of Arabidopsis thaliana with 128 samples.

Results

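The chloroplast-encoded transcripts of Arabidopsis thaliana were followed through a heat treatment of seedlings, in sorted shoot stem cell nuclei, other nuclei and whole tissue. They were taken as every row of the deposited table of normalized read counts whose locus ID starts with ATCG, the prefix of genes in the chloroplast genome. This gave 133 IDs among 60886 features, the rest being nuclear genes, transposable elements, 146 mitochondrion-encoded IDs (prefix ATMG) and the reporter.

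The chloroplast genome encodes subunits of both photosystems, the cytochrome b6f complex, the ATP synthase and the NADH dehydrogenase-like complex, and also rRNAs, tRNAs, ribosomal proteins and subunits of a bacterial-type RNA polymerase. Its genes are transcribed inside the plastid by that polymerase, whose sigma factors are imported nuclear products, and by phage-type polymerases encoded in the nucleus. Unlike nuclear mRNAs, plastid RNAs carry no stable poly(A) tail, and short tails added there mark RNA for decay. Libraries of the kind used here prime cDNA from poly(A), so a count of a chloroplast transcript is not a direct measure of its full pool in the plastid.

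Wt plants were Col-0 carrying the stem cell reporter pCLV3::H2BmCherry, and the mutants carried the same reporter. The mutants were poliv (nrpda-3), affected in the polymerase of RNA-directed DNA methylation, and ddm1 (ddm1-10), affected in a chromatin remodeler needed for DNA methylation. Seedlings 6 days old were kept at 37 °C for 24 h (H) or at 21 °C (C) and sampled directly, at day 7, or after transfer to soil and recovery until day 28. The material was above-ground seedling tissue, 10 seedlings a library (T7), sorted stem cell nuclei at day 7 (S7), nuclei without the reporter signal at day 7, from wt alone (N7), inflorescence meristems at day 28 (I28) and sorted stem cell nuclei at day 28 (S28), with 100 nuclei a library. The labels name Smart-seq version 2 for every library, whereas the study's methods name version 2 for T7, I28 and S28 and version 3 for S7, without naming N7, so material and library chemistry cannot be told apart where levels are set side by side between materials. The groups therefore were HT7 and CT7, HS7 and CS7, HI28 and CI28, and HS28 and CS28 in ddm1, poliv and wt, and HN7 and CN7 in wt. Each S7 group held 8 libraries, each N7 group 6 and every other group 4, except 3 in poliv CT7, ddm1 HI28, wt CI28 and ddm1 HS28.

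Reads recovered from the normalized counts ran between 1853992 and 17611137 per library over the 128 libraries. The defining markers of the sorted stem cells separated the nuclei of wt plants by group median, but not in every library. The stem cell gene CLV3 had medians of 16.4 normalized counts in HS7 and 16.2 in CS7, against 0 in both HN7 and CN7, and the reporter had medians of 16.4 in HS7 and 25.8 in CS7, against 0 in both N7 groups. CLV3 was at 0 in replicate 6 of wt CS7 and at 1.21 in replicate 6 of wt CN7. The reporter was at 0 in replicate 6 of wt HS7 and at 2.49 in replicate 5 of wt CN7. Neither the labels nor the study's methods say that libraries of a group came from separate plants or sorts, so the p-values below measure the spread between libraries, which may be technical.

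The files give no gene names for ATCG codes. From notes in the reference annotation, 5 are named here. These are ATCG00660 and ATCG01310 (ribosomal proteins L20 and L2 of the plastid ribosome), ATCG00670 (the plastid-encoded ClpP, a proteolytic subunit of the Clp protease), ATCG00530 (a CemA-like protein related to proton extrusion) and ATCG00430 (listed as photosystem II reaction center protein G). The other IDs are given by code, without a role. Of the named genes, 2 are shown by the first 100 bases of the coding strand, the length of 1 read, from RefSeq (TAIR10.1, plastid record Pltd), with the start codon in capitals. L20 is shown as the named transcript with the largest decrease under heat in every comparison of nuclei, and L2 as one whose sequence is in the genome more than once.
rpl20 (Pltd:68766-68865, minus strand, in a gene spanning Pltd:68512-68865): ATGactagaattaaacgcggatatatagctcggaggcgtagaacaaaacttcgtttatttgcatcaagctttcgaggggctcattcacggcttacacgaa
rpl2 (Pltd:85744-85843, minus strand, and Pltd:152806-152905, plus strand): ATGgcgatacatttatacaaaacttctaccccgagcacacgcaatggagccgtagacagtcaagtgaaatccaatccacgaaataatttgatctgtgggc
The rpl2 genes span Pltd:84337-85843 and Pltd:152806-154312, and their 1507 bases are identical in both places. In the reference plastid genome of 154478 bases, 34 of 131 gene entries have a second entry of identical sequence. A read from such a gene matches both places equally well.

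Chloroplast-encoded transcripts were a large part of the libraries from nuclei. Their share of all normalized counts in wt CS7 had a lowest, median and highest value of 26.4%, 27.9% and 35.5%, and in wt CN7 24.9%, 28.2% and 30.4%. In wt CT7 seedlings the 4 libraries held 8.81%, 4.52%, 4.42% and 5.21%. The I28 libraries of all genotypes lay between 2.47% and 8.44%, and the S28 libraries between 8.49% and 22.8%. All groups of nuclei at day 7 with control treatment thus lay above every library of seedling or inflorescence tissue. The 18S rRNA encoded in the nucleus also held more of these libraries of nuclei. Its share had medians of 12.9% in wt CS7 and 15.8% in wt CN7, against 0.0708% in wt CT7, 0.12% in wt CI28 and 1.06% in wt CS28. What the materials differ in here was not tested. In bulk tissue such as T7 and I28, fewer cells of a type and less RNA per cell cannot be told apart. Shares are given as a description, without a test, since a share also moves with every other transcript in the library.

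**Figure D1:**
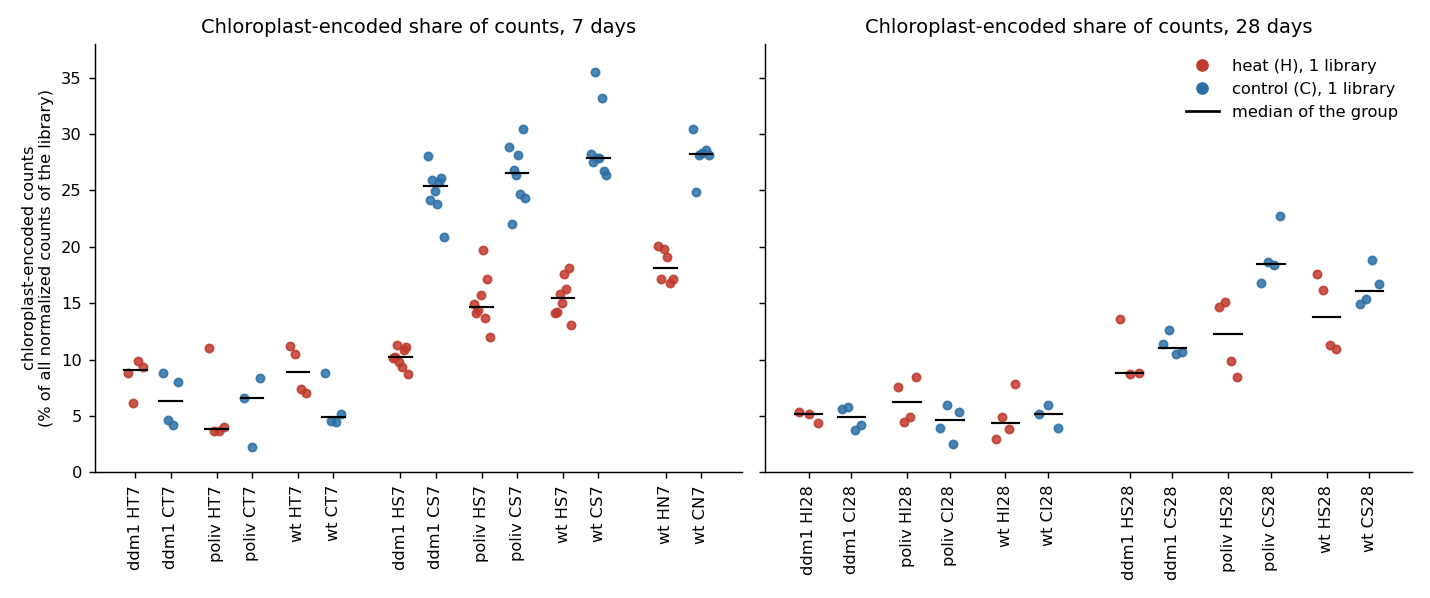
Share of each library's normalized counts held by the 133 chloroplast-encoded IDs (%, 1 point a library, line at the group median), with heat (H) and control (C) groups of each genotype and material at 7 days (left) and 28 days (right). At 7 days the heat-treated nuclei sit below their control nuclei in every genotype, while the seedling groups overlap.

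Few IDs held most of these counts. Over all libraries, ATCG01180 and ATCG00950 together held 52.9% of the chloroplast-encoded counts, the 10 highest IDs 79.9%, and 21 IDs 90%. By material the pair held 51.1% in T7, 55.6% in S7, 49.6% in N7, 54.9% in I28 and 48.6% in S28. The chloroplast share of a library thus rests largely on this pair. With the pair taken out of all counts, the median share was 15.6% in wt CS7, 8.37% in wt HS7, 3.19% in wt CT7 and 3.42% in wt HT7. In the part of the chloroplast-encoded counts held by the pair, groups within a material differed more than the materials did. The medians of this part over libraries were 57.7% in wt HT7 against 39.03% in wt CT7. They were 64.2% in poliv HT7 against 34.4% in poliv CT7, and 32.3% in ddm1 CS28 against 51.6% in wt CS28. At the other end, 19 of the 133 IDs were listed at 0 in most of the libraries, 77 were above 0 in all, and none was at 0 in all. A mean of at least 5 normalized counts was reached by 103 IDs in T7, 113 in S7, 113 in N7, 97 in I28 and 117 in S28.

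Counts listed under the IDs of L20 and L2 differed between materials. L20 (ATCG00660) had medians of 1357 normalized counts in wt CS7, 1339 in wt CN7 and 1453 in wt CS28, against 41.2 in wt CT7 and 52.5 in wt CI28. L20 was therefore far lower in whole tissue than in nuclei. L2 (ATCG01310) followed another pattern, with medians of 6506 in wt CS7 and 6151 in wt CN7, against 207.2 in wt CT7, 0 in wt CI28 and 5.84 in wt CS28. ATCG00020, the ID with the third highest count (chosen after its values were seen), had medians of 105286 in wt CS7 and 130947 in wt CN7, against 5346 in wt CT7, 804.1 in wt CI28 and 23968 in wt CS28. No test was made between materials prepared in different ways.

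Some IDs swung between libraries of the same group. For 20 IDs, holding 2.97% of the chloroplast-encoded counts, at least 1 library was listed at 0 while another of the same group had over 100 normalized counts. Within groups of at least 6 libraries, 17 of these IDs could be set against all other chloroplast IDs (mean of at least 50 in at least 3 groups), and 14 of them formed 7 pairs, each ID being the other's most negative partner, with a mean r within groups between -0.93 and -0.76. ATCG00840 and ATCG01300 are such a pair. Their mean r over 8 groups was -0.93, and the coefficient of variation was 0.809 for ATCG00840 and 0.770 for ATCG01300, but 0.140 for their sum. In wt CS7, replicate 7 had 0 counts of ATCG00840 and 2653 of ATCG01300, while replicate 8 had 2624 of ATCG00840 and 0 of ATCG01300. In ATCG00905 and ATCG01230 the mean r was -0.90 over 6 groups, and the coefficients of variation were 0.626 and 1.22, against 0.186 for the sum. When 1 of the pair was high the other was low, and the sum was steadier than either. L2 (ATCG01310) had ATCG00830 as its most negative partner, with a mean r of -0.56 over 8 groups, but was not that ID's own. These r values describe libraries of a group that share the total count and the pool of IDs, and carry no test. Single values of swinging IDs were taken as uncertain, and every count of called IDs was repeated without all 20.

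**Figure D2:**
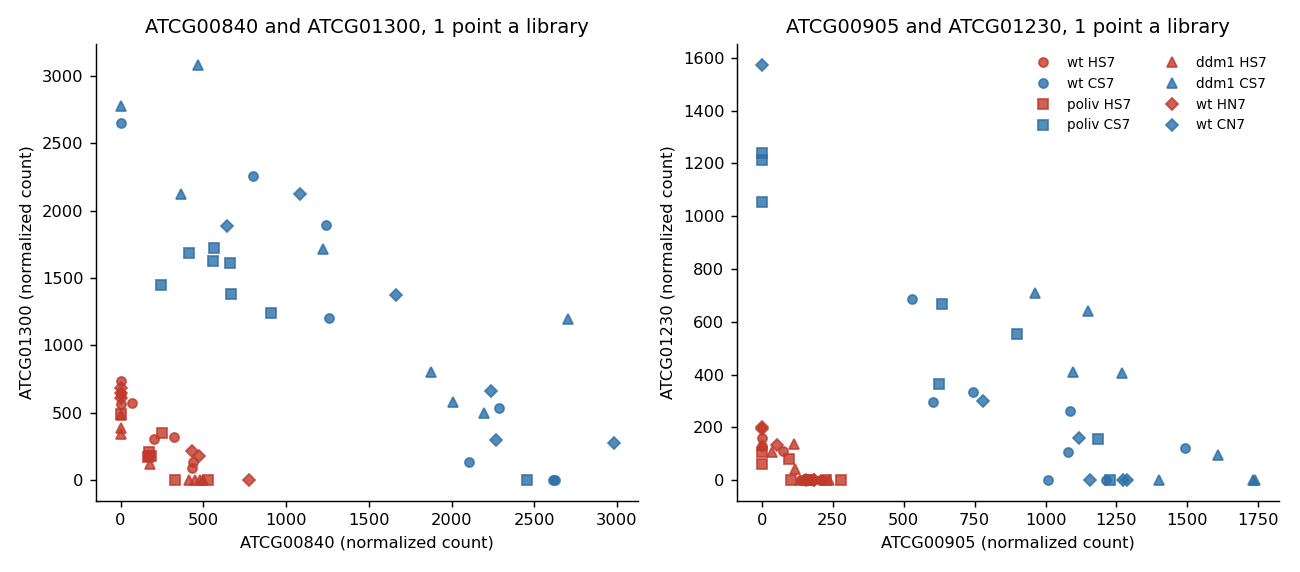
Normalized counts of ATCG00840 against ATCG01300 (left) and of ATCG00905 against ATCG01230 (right), 1 point a library, in the HS7, CS7, HN7 and CN7 groups. Points run along falling lines within each group, with libraries at 0 on either axis, and the heat-treated libraries (red) lie closer to the origin than their controls (blue).

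To see what heat did to these transcripts, H libraries were compared with C libraries in each material. An ID was called higher or lower where limma gave an adjusted p under 0.05 and a log2 fold change over 1 in size, on log2(normalized count + 1), with all features fitted together. The added 1 understates the change of IDs that are low in every library. A fold change on this scale compares means of log values, so for an ID with some libraries at or near 0 it can also be larger than the ratio of the group means.

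Directly after heat, most chloroplast transcripts were lower in nuclei. In wt stem cell nuclei (HS7 against CS7), 58 of 114 tested IDs were lower and 3 higher, where 23.7% of all tested features were lower and 12.5% higher. The median log2 fold change was -1.20 over the chloroplast IDs and -0.36 over all features, and 103 of 114 lay below 0. The decreases called ranged between -4.42 and -1.04 on the log2 scale. With each library scaled on nuclear genes alone, 36 IDs were lower and 3 higher, where 16.7% of all features were lower and 18.2% higher. With scaling on the total count, 29 were lower and 5 higher, where 13.9% of all features were lower and 21.9% higher. The share of counts was 13.1%, 15.4% and 18.1% (lowest, median and highest) in wt HS7, against 26.4%, 27.9% and 35.5% in wt CS7, without overlap.

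Among the named transcripts L20 showed the largest decrease in wt stem cell nuclei. It had 98.3, 203 and 288 normalized counts (lowest, median and highest) in HS7, against 1210, 1357 and 1526 in CS7, so that the groups were far apart (log2 fold change -2.82, SE 0.18, adjusted p = 4.8e-14, limma). ClpP (ATCG00670) also fell, with 855, 945 and 1115 in HS7 against 1645, 2261 and 2504 in CS7 (-1.17, SE 0.10, adjusted p = 3.3e-11, limma). The CemA-like transcript, at -0.92 (adjusted p = 3.1e-07, limma), and ATCG00430, at -0.38 (adjusted p = 0.014), passed the p threshold but not the fold threshold. L2, here and below by ATCG01310 alone, was at -0.62 (adjusted p = 0.21, limma). ATCG00830, the ID that ran most against ATCG01310 within groups, had 5964, 6939 and 8618 in HS7. In CS7 it had 15066, 23996 and 28923, without overlap. Among IDs without a name, ATCG00300 fell to 179, 261 and 324 in HS7, against 1909, 2083 and 2338 in CS7 (-3.06, SE 0.12, adjusted p = 1.2e-18, limma). ATCG00330 fell to 21.7, 41.2 and 65.5 in HS7, against 270, 386 and 469 in CS7 (-3.21, SE 0.25, adjusted p = 1e-11, limma).

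Only 3 of the tested IDs were called higher in wt stem cell nuclei, and none of them has a name in the reference. ATCG00720 had 6097, 8153 and 9734 normalized counts in HS7, against 2154, 2897 and 3321 in CS7, without overlap (1.45, SE 0.10, adjusted p = 5.8e-12, limma). ATCG00230 had 22.9, 44.5 and 75.5 in HS7, against 2.25, 10.7 and 28.9 in CS7 (2.05, SE 0.55, adjusted p = 0.0032). ATCG00400 had 12.3, 20.6 and 48.1 in HS7, against 0.861, 4.92 and 13.5 in CS7 (2.16, SE 0.63, adjusted p = 0.0065). The last pair were low and their ranges overlapped between groups, while ATCG00720 rose against the direction of most IDs at a high level.

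**Figure D3:**
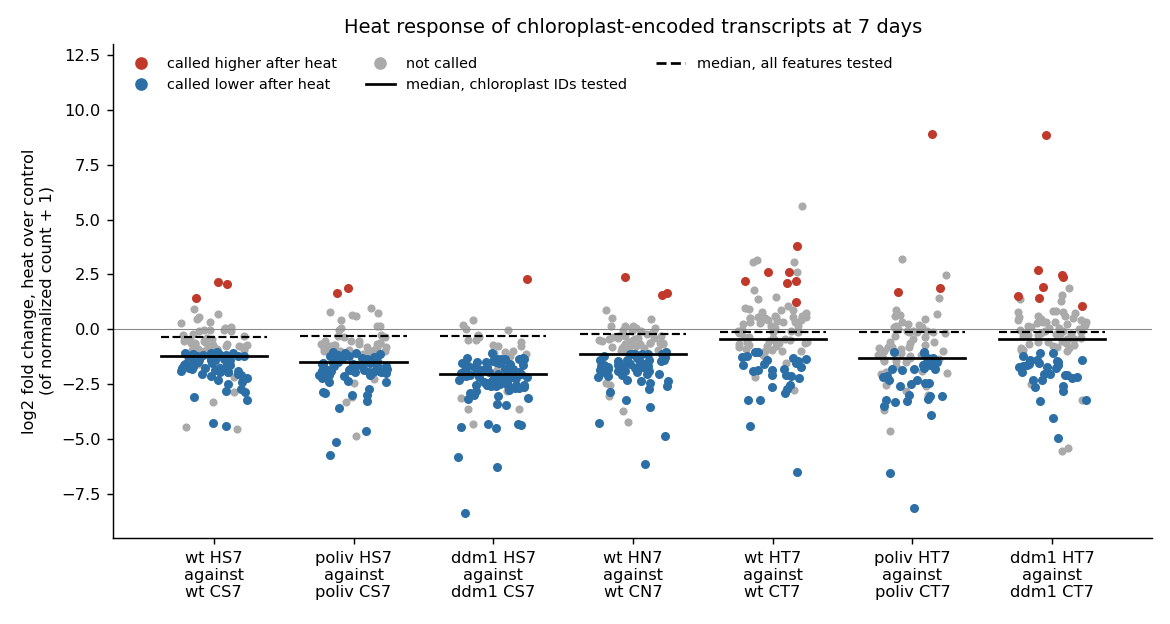
Log2 fold change, heat over control, of each tested chloroplast-encoded ID (1 point an ID) in the 7 comparisons at day 7. Red points were called higher and blue points lower. Solid lines give the median of the chloroplast IDs and dashed lines that of all tested features. In the 4 comparisons of nuclei and in poliv seedlings the solid line lies well below the dashed line, and in wt and ddm1 seedlings closer to it.

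Nuclei without the stem cell reporter showed the same direction. In wt HN7 against CN7, 58 of 113 tested IDs were lower and 3 higher, where 24.4% of all tested features were lower and 16% higher, with a median of -1.14 against -0.22 over all features. With scaling on nuclear genes 44 were lower and 4 higher (18.2% and 21.7% of all features), and on the total count 41 were lower and 4 higher (16.9% and 23.4%). L20 had 166, 216 and 280 normalized counts in HN7, against 1290, 1339 and 1611 in CN7 (-2.70, SE 0.13, adjusted p = 3e-15, limma). ClpP had 886, 941 and 1171 in HN7, against 2373, 2752 and 3221 in CN7 (-1.49, SE 0.09, adjusted p = 2.5e-13, limma). The CemA-like transcript had 1048, 1126 and 1294 in HN7, against 2299, 2389 and 2869 in CN7 (-1.12, SE 0.08, adjusted p = 1.5e-11, limma). In none of these 3 did the groups overlap. ATCG00300 had 264, 316 and 345 in HN7 against 2593, 2791 and 3311 in CN7 (-3.20, SE 0.10, adjusted p = 7e-20, limma). The same 3 IDs as in stem cell nuclei were higher, with ATCG00720 at 10228, 10817 and 12289 in HN7, against 3132, 3465 and 3986 in CN7 (1.65, SE 0.06, adjusted p = 6.2e-18, limma). As deposited, the lists of lower IDs shared 46 members, which is 79.3% of each. Over all features, the lists of lower features shared 3250, which is 71.3% of the S7 list and 69.6% of the N7 list.

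The heat effects in stem cell and nonstem nuclei were not shown to differ. In the test of the difference itself, 0 of 113 IDs were called by limma and 0 by edgeR (background 0.275%), and 8 had an unadjusted p under 0.05. Compared directly, CS7 and CN7 gave 0 called IDs of 114 by limma and 0 by edgeR (background 2.49%), and 46 with an unadjusted p under 0.05. The differences there were small and ran one way. Without the fold threshold, a rule chosen after the data were seen, 29 IDs were lower in stem cell nuclei and 0 higher, where 3.53% of all features were lower and 3.81% higher. The smallest p belonged to ATCG01020, at -0.64 (SE 0.08, adjusted p = 4.9e-07, limma). After heat, HS7 against HN7 gave 0 called IDs of 109 by limma and 0 by edgeR (background 1.38%), with 28 at an unadjusted p under 0.05 and, without the fold threshold, 9 lower, where 1.3% of all features were.

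In poliv stem cell nuclei (HS7 against CS7), 65 of 114 tested IDs were lower and 2 higher, where 22.7% of all features were lower and 12.5% higher, with a median of -1.46 against -0.32. With scaling on nuclear genes 48 were lower and 5 higher (15.2% and 19.1% of all features), and on the total count 42 were lower and 5 higher (14% and 21.2%). CLV3 had a median of 15.3 in poliv HS7 and 31.6 in poliv CS7, and the reporter of 7.57 in poliv HS7 and 12.5 in poliv CS7, and their part in the result was not tested. L20 fell to 115, 157 and 320 in HS7, against 1047, 1387 and 1530 in CS7 (-2.91, SE 0.18, adjusted p = 1.4e-13, limma). ClpP fell to 418, 584 and 778 in HS7, against 1661, 1982 and 2310 in CS7 (-1.77, SE 0.12, adjusted p = 1.5e-12, limma). The CemA-like transcript fell to 617, 762 and 1238 in HS7, against 1595, 2045 and 2668 in CS7 (-1.36, SE 0.13, adjusted p = 1.2e-09, limma). These groups did not overlap. L2 had 1178, 2740 and 6698 in HS7, against 5308, 9313 and 12625 in CS7, with overlap (-1.57, SE 0.32, adjusted p = 0.0012, limma). The 2 IDs called higher were ATCG00400 (1.88, SE 0.65, adjusted p = 0.022, limma) and ATCG00230 (1.65, SE 0.50, adjusted p = 0.01). In the test of the difference between the heat effects in poliv and wt, 0 of 113 IDs were called by limma and 0 by edgeR (background 0.233%), 32 had an unadjusted p under 0.05, and the median difference was -0.27.

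By the median over IDs, the decrease was largest in ddm1 among the 4 comparisons of nuclei, as deposited and under both scalings. In ddm1 stem cell nuclei (HS7 against CS7), 86 of 114 tested IDs were lower and 1 higher, where 23% of all features were lower and 12.1% higher, with a median of -2.03 against -0.32. With scaling on nuclear genes 73 were lower and 1 higher (16.6% and 18.3% of all features), and on the total count 59 were lower and 1 higher (12.1% and 26.4%). The stem cell markers differed between these groups. CLV3 had a median of 14.1 in ddm1 HS7, with no library at 0, and of 2.64 in ddm1 CS7, with 3 of 8 libraries at 0, and the reporter had a median of 55.2 in ddm1 HS7 and of 7.24 in ddm1 CS7. Their part in the result was not tested. The share of counts was 8.68%, 10.2% and 11.3% in ddm1 HS7, against 20.8%, 25.4% and 28.05% in ddm1 CS7. Here all 5 named transcripts were called lower. L20 had 64.8, 291 and 359 in HS7, against 1620, 1892 and 2349 in CS7 (-3.03, SE 0.26, adjusted p = 1.1e-08, limma). ClpP had 525.9, 671 and 859 in HS7, against 2480, 3030 and 3222 in CS7 (-2.13, SE 0.11, adjusted p = 1.4e-16, limma). The CemA-like transcript had 595, 782 and 950 in HS7, against 2261, 2740 and 3155 in CS7 (-1.81, SE 0.11, adjusted p = 1.7e-14, limma). In all 3 the highest heat-treated library lay below the lowest control library. ATCG00430 fell by 1.297 (SE 0.14, adjusted p = 1.3e-08, limma) and L2 by 1.36 (SE 0.26, adjusted p = 0.00064), both on the log2 scale. The single ID called higher was ATCG00230, with 28.4, 51.8 and 78.3 in HS7, against 2.25, 9.30 and 19.9 in CS7 (2.31, SE 0.54, adjusted p = 0.001, limma).

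**Figure D4:**
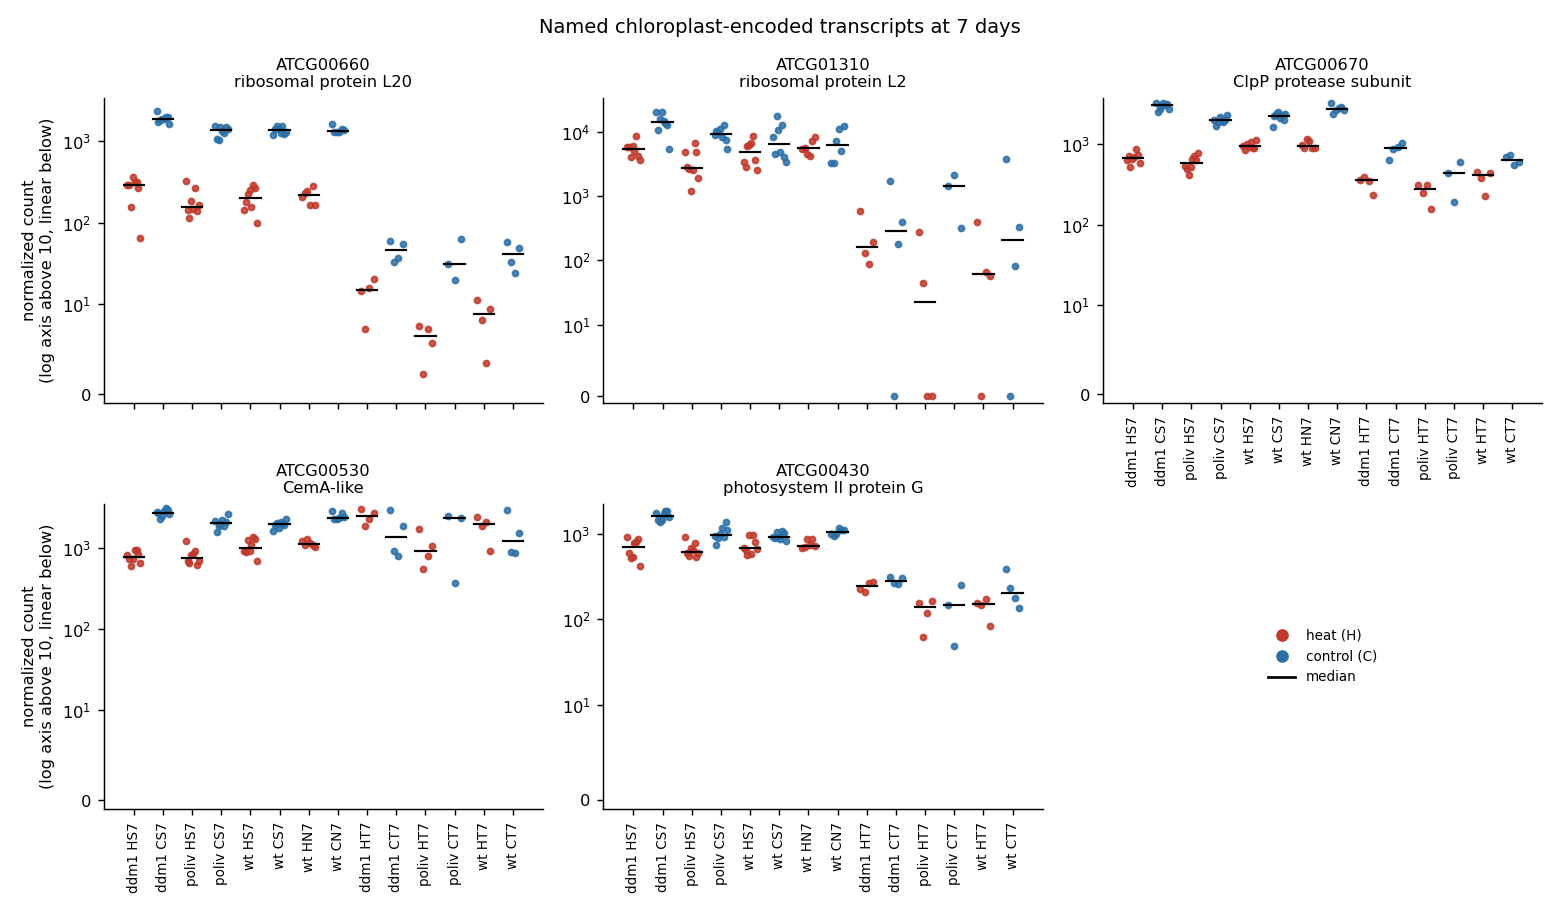
Normalized counts of the 5 named chloroplast-encoded transcripts in each library at day 7 (1 point a library, line at the group median, log axis above 10 and linear below), heat in red and control in blue. L20 (ATCG00660) lies lower after heat, without overlap, in all nuclei and again in seedlings, and L2 (ATCG01310) scatters most, with libraries at 0 in seedlings.

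The difference between ddm1 and wt was tested as such. In the heat effect of ddm1 stem cell nuclei minus that of wt stem cell nuclei, 23 of 113 IDs were called, all lower in ddm1, where 4.06% of all features were lower and 7.09% were called in either direction. The median difference was -0.83 over the chloroplast IDs and 0.00 over all features, and 104 of 113 lay below 0. Of the 23 called IDs, 22 were also called lower in ddm1 by themselves and 15 in both genotypes, and 1 was a swinging ID. The differences called ranged between -2.28 and -1.01. Without the fold threshold, 56 IDs were lower, where 4.7% of all features were. Scaling on the total count left 5 called IDs, all lower, where 2.21% of all features were lower. In edgeR on the recovered reads 11 were lower, where 2.43% of all features were, and with scaling on nuclear genes 20, where 3.27% were. Of 101 tested mitochondrion-encoded IDs, 9 were lower and 0 higher in the same difference, with a median of -0.55. The marker values given above for ddm1 HS7 and CS7 enter this difference too.

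ATCG01170 had the largest difference, with 98.9, 271 and 518 normalized counts in ddm1 HS7 against 3018, 6499 and 9815 in ddm1 CS7, and 168, 781 and 1037 in wt HS7 against 2234, 2512 and 5305 in wt CS7 (difference -2.28, SE 0.47, adjusted p = 0.0016, limma). This ID is among the swinging ones. ATCG00040, with high counts in every library of nuclei, had 4877, 6650 and 7344 in ddm1 HS7 against 49818, 58415 and 69380 in ddm1 CS7, and 10533, 13581 and 14597 in wt HS7 against 37785, 48048 and 52430 in wt CS7 (difference -1.32, SE 0.11, adjusted p = 1.1e-10, limma). After heat its range in ddm1 lay below that in wt, and without heat the ranges overlapped. ATCG00720, which rose in wt, had 4189, 5448 and 5997 in ddm1 HS7 against 3850, 4370 and 5333 in ddm1 CS7, with overlap (difference -1.26, SE 0.14, adjusted p = 9.8e-09, limma). Of the named transcripts none passed the fold threshold. ClpP was nearest, at -0.96 (adjusted p = 1.1e-06, limma), followed by ATCG00430 at -0.91 (adjusted p = 0.0011), the CemA-like transcript at -0.89 (adjusted p = 0.00015), L2 at -0.75 (adjusted p = 0.39) and L20 at -0.22 (adjusted p = 0.77).

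**Figure D5:**
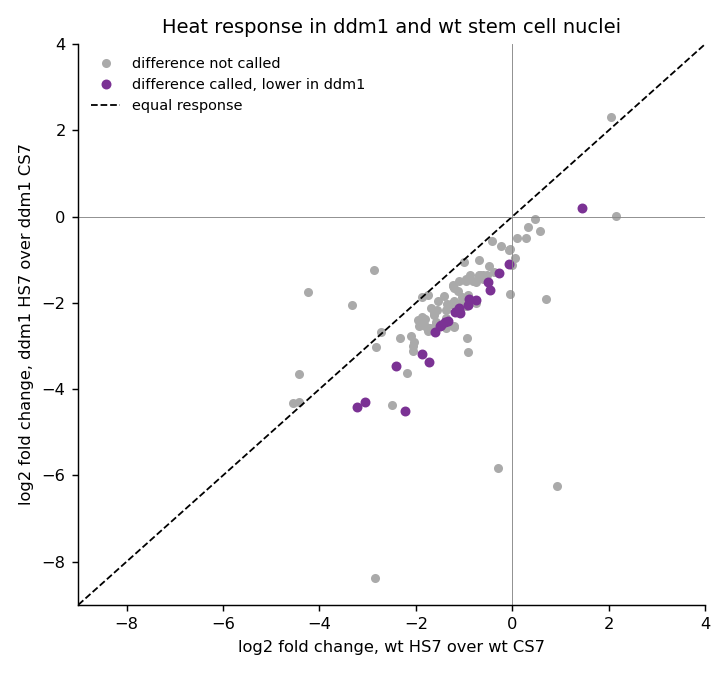
Log2 fold change of each chloroplast-encoded ID under heat in ddm1 stem cell nuclei (y axis) against that in wt stem cell nuclei (x axis), 1 point an ID, with the 23 IDs whose difference was called in purple and the line of equal response dashed. Most points lie below the line.

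These lists of lower IDs came from comparisons that share no library. As deposited, 45 IDs were lower in all 4 comparisons of nuclei. They are 77.6% of the list of wt S7, 69.2% of that of poliv S7, 52.3% of that of ddm1 S7 and 77.6% of that of wt N7. With scaling on nuclear genes 36 IDs were lower in wt HS7 against CS7, so this overlap would be smaller. Over all features 2030 were lower in all 4, which is 44.5% of the list of wt S7, 46.6% of that of poliv S7, 40.5% of that of ddm1 S7 and 43.5% of that of wt N7. Of the 45 chloroplast IDs, 2 were swinging IDs.

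In seedling tissue the picture was mixed. In wt HT7 against CT7, 28 of 104 tested IDs were lower and 7 higher, where 27.4% of all features were lower and 20.3% higher, so the share of lower IDs was near that of all features. The median was -0.42, against -0.14 over all features. The direction depended on the scaling, since with scaling on nuclear genes 7 were lower and 39 higher (13.1% and 46.6% of all features) and with scaling on the total count 12 were lower and 33 higher (15.1% and 40.6%), with the chloroplast median at 0.65 and 0.44. All features moved with it, and relative to their median the chloroplast median was -0.28 as deposited, -0.33 with nuclear-gene scaling and -0.32 with total-count scaling. The share of counts was 11.2%, 10.5%, 7.38% and 7.04% in the HT7 libraries, against 8.81%, 4.52%, 4.42% and 5.21% in the CT7 libraries, with overlap through control replicate 1. Without that replicate 20 IDs were higher and 23 lower, where 20.8% of all features were higher and 25.9% lower. With ATCG01180 and ATCG00950 taken out, the shares lay closer together. They were 5.05%, 3.47%, 3.28% and 3.37% in the HT7 libraries, against 4.75%, 2.81%, 3.14% and 3.24% in the CT7 libraries.

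L20 fell in wt seedlings as it did in nuclei, with 11.02, 8.23, 3.40 and 9.48 normalized counts in HT7, against 57.7, 33.1, 23.6 and 49.3 in CT7 (-2.23, SE 0.42, adjusted p = 0.00068, limma). ClpP at -0.81 (adjusted p = 0.012, limma), ATCG00430 at -0.67 (adjusted p = 0.099) and the CemA-like transcript at 0.33 (adjusted p = 0.53) were not called. Among the others, ATCG00065 fell to 7.58, 12.3, 9.53 and 9.48 in HT7, against 438, 168, 169 and 199 in CT7 (-4.40, SE 0.33, adjusted p = 3.1e-07, limma). ATCG00720 was higher in this tissue too, with 56632, 42603, 43340 and 50161 in HT7, against 17768, 11159, 8678 and 8282 in CT7 (2.13, SE 0.25, adjusted p = 1.7e-05, limma). ATCG01070 had 1244, 957, 993 and 708 in HT7, against 351, 95.1, 94.6 and 195 in CT7 (2.59, SE 0.39, adjusted p = 0.00019, limma). None of these 4 called transcripts overlapped between the groups.

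In poliv seedlings (HT7 against CT7), 33 of 101 IDs were lower and 3 higher, where 27.1% of all features were lower and 22% higher, with a median of -1.31 against -0.12. Scaling on nuclear genes gave 12 lower and 9 higher (14.3% and 39.4% of all features), and on the total count 20 lower and 6 higher (17.3% and 33.9%). Single libraries weighed on this comparison. Replicate 3 of poliv CT7 held 2.22% chloroplast counts, against 6.6% and 8.33% in the others of its group, and without it 54 IDs were lower and 3 higher (25.1% and 21% of all features). Replicate 1 of poliv HT7 held 11.05%, against 3.62%, 3.70% and 3.97%, and without it 45 were lower and 3 higher (27% and 21.1%). L20 fell to 7.56, 2.23, 7.25 and 5.63 in HT7, against 31.1, 19.7 and 62.4 in CT7 (-2.48, SE 0.52, adjusted p = 0.0018, limma). ATCG00720 had 53023, 38820, 29458 and 33860 in HT7, against 14784, 7979 and 13828 in CT7 (1.69, SE 0.35, adjusted p = 0.0016, limma).

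In ddm1 seedlings (HT7 against CT7), 32 of 103 IDs were lower and 8 higher, where 27.9% of all features were lower and 22.7% higher, with a median of -0.42 against -0.12. Scaling on nuclear genes gave 12 lower and 26 higher (12.8% and 44.1% of all features), and on the total count 19 lower and 17 higher (16.3% and 36.5%). L20 had 14.5, 7.20, 15.5 and 20.4 in HT7, against 59.3, 32.3, 36.4 and 55.2 in CT7 (-1.64, SE 0.37, adjusted p = 0.0019, limma). ClpP had 362, 393, 344 and 235 in HT7, against 628, 878, 933 and 1046 in CT7 (-1.38, SE 0.24, adjusted p = 0.0003, limma). The groups did not overlap in either. ATCG00720 had 55196, 48762, 57105 and 46897 in HT7, against 12323, 12595, 13031 and 16448 in CT7 (1.94, SE 0.22, adjusted p = 7.7e-06, limma). ATCG01000 had 958, 621, 350 and 1153 in ddm1 HT7, against 0, 0, 0 and 4.04 in ddm1 CT7. In poliv it had 1168, 379, 377 and 304 in HT7, against 0 in each CT7 library, but in wt 1252, 914, 949 and 302 in HT7 against 546, 106, 0 and 0 in CT7.

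The heat effects of seedlings were not shown to differ between genotypes. For poliv minus wt, 0 of 102 IDs were called by limma and 0 by edgeR (background 0.0515%), 8 had an unadjusted p under 0.05, and the median difference was -0.76 against 0.00 over all features. For ddm1 minus wt, 0 of 105 IDs were called by limma and 0 by edgeR (background 2.65%), with 4 at an unadjusted p under 0.05. As deposited, 18 IDs were lower in all 3 seedling comparisons, and 12 of these were lower in all 4 comparisons of nuclei too. The 12 are 66.7% of the seedling list and 26.7% of the list of nuclei. These overlaps cannot be as large with scaling on nuclear genes, which left 7 lower IDs in wt HT7 against CT7. Over all features, 3470 were lower in all 3 seedling comparisons, and 1227 of these in all 4 comparisons of nuclei, which is 35.4% of the seedling list and 60.4% of the list of nuclei. L20 was the only named transcript among the 12.

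Mitochondrion-encoded transcripts were mostly higher after heat in the same libraries. In wt, 83 of 98 tested ATMG IDs were higher and 1 lower in HS7 against CS7 (median log2 fold change 3.98), and 82 of 88 were higher and 1 lower in HT7 against CT7 (6.06). The median over all features was -0.36 in HS7 against CS7 and -0.14 in HT7 against CT7, as deposited. The shares of all features called higher in these comparisons, and their dependence on the scaling, are given above. Their share of counts had a median of 3.26% in wt HS7 against 0.362% in wt CS7, and of 9.70% in wt HT7 against 0.714% in wt CT7.

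Nuclear genes whose products work with plastid genes were read from 4 lists. Of 40 nuclear partners in photosynthesis, such as light-harvesting proteins, 37 were lower and 0 higher in wt HS7 against CS7 (median -2.73), 39 and 0 in wt HT7 against CT7 (-3.79), and 38 and 0 in ddm1 HS7 against CS7 (-3.43). The antenna gene LHCB1.1 averaged 80.4 normalized counts in wt HS7 and 11655 in wt CS7 (-7.35, SE 0.34, adjusted p = 9.9e-11, limma). In the difference of ddm1 and wt stem cell nuclei, 11 of the 40 were lower in ddm1 and 0 higher (median -0.69), among them LHCB1.2 (-1.94, SE 0.19, adjusted p = 1.4e-09, limma) and LHCA2 (-1.63, SE 0.23, adjusted p = 1.9e-06). Of 28 nuclear-encoded plastid ribosomal proteins, 1 was lower and 1 higher in wt HS7 against CS7. In ddm1 HS7 against CS7 15 were lower and 0 higher, and in wt HT7 against CT7 17 were lower and 0 higher. Their medians were -0.47, -1.20 and -1.14 in that order, against -0.36, -0.32 and -0.14 over all features. The list counts are as deposited, and the shares of all features called are given above. In wt HT7 against CT7, scaling on nuclear genes moved the median of all features to 0.99. In the difference of ddm1 and wt stem cell nuclei 8 of the 28 were lower and 0 higher, with PRPS1 at -2.08 (SE 0.38, adjusted p = 0.00021, limma).

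Of 24 genes of plastid transcription, 6 were higher and 6 lower in wt HS7 against CS7. HSP21, a plastid heat shock protein that associates with the plastid transcription machinery, averaged 1712 normalized counts in HS7 and 0.108 in CS7 (10.62, SE 0.36, adjusted p = 1.8e-20, limma). RPOTmp, a phage-type polymerase of plastids and mitochondria, averaged 618 in HS7 and 161 in CS7 (1.94, SE 0.21, adjusted p = 7.5e-09, limma). The sigma factor SIG5 averaged 11.9 in HS7 and 91.5 in CS7 (-4.06, SE 0.75, adjusted p = 6.2e-05, limma) and SIG1 67.9 in HS7 and 310.5 in CS7 (-2.44, SE 0.33, adjusted p = 6.3e-07). Of 21 genes of plastid RNA processing and decay, 5 were higher and 3 lower in wt HS7 against CS7. RNJ, the plastid ribonuclease J, averaged 212 in HS7 and 68.1 in CS7 (1.60, SE 0.27, adjusted p = 1.7e-05, limma), and HCF107, which stabilises plastid transcripts, averaged 54.8 in HS7 and 544 in CS7 (-3.63, SE 0.37, adjusted p = 1.2e-08). By these counts the photosynthesis genes were lower almost throughout and the transcription and processing genes went in both directions. The shares of all features called in the same comparisons are given above. Whether the transcription and processing lists differed from those shares was not tested.

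At day 28 few chloroplast IDs differed between plants with and without earlier heat. In stem cell nuclei (HS28 against CS28), limma and edgeR each called 0 of 115 IDs in wt (background 0%, 9 at an unadjusted p under 0.05), 0 of 115 in poliv (background 0.0541%, 43 at an unadjusted p under 0.05) and 0 of 116 in ddm1 (background 0.23%, 7 at an unadjusted p under 0.05). In poliv the median was -0.57 against 0.07 over all features, and the share of counts was 14.7%, 15.1%, 9.83% and 8.49% in HS28, against 16.8%, 18.7%, 18.4% and 22.8% in CS28, without overlap. The mitochondrion-encoded share of those libraries was 22.2%, 27.3%, 44.1% and 37.2% in poliv HS28, against 25.2%, 22.9%, 19.7% and 12.4% in poliv CS28, and its part in this was not tested. L20 had medians of 1377 in wt HS28 and 1453 in wt CS28, so the low level seen in wt at day 7 was not found at day 28. In poliv L20 averaged 1110 ± 247 in HS28 and 1819 ± 217 in CS28 (SD, n = 4 each), without overlap and not called (-0.73, SE 0.20, adjusted p = 0.40, limma). In ddm1 it was at -0.19 (adjusted p = 0.73, limma). In ddm1 the result rested on replicate 1 of HS28, whose chloroplast share was 13.6%, against 8.69% and 8.84% in the others. Without it 14 IDs were lower and 1 higher, where 3.16% of all features were lower and 3.27% higher. The mitochondrion-encoded share was 4.52% in that library, against 22.2% and 19.3% in the others, and its part in this was not tested.

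In inflorescence meristems (HI28 against CI28), limma and edgeR each called 0 of 97 IDs in wt (background 0%), and 3 had an unadjusted p under 0.05. The labels do not say what a replicate number shares. In the wt groups libraries of the same number deviated together, and a block on the number was also fitted. With this block, whose pairing was read from the same values, 3 of 97 IDs were higher and 0 lower. Of all features 0.957% were higher and 0.139% lower. In poliv 4 of 98 were higher and 0 lower, where 0.881% of all features were higher and 0.211% lower, with a median of 0.60 against 0.04. They were ATCG00620, ATCG00200, ATCG00440 and ATCG00550. ATCG00620 had 17.5, 13.1, 27.7 and 31.2 normalized counts in HI28, against 4.42, 4.78, 2.24 and 5.22 in CI28 (2.15, SE 0.39, adjusted p = 0.013, limma). The count was 0 without poliv HI28 replicate 3 or 4, 1 without poliv CI28 replicate 1 or 2, and 10 without poliv HI28 replicate 2. In ddm1 3 of 96 were higher and 0 lower, where 0.704% of all features were higher and 0.0582% lower. They were ATCG00270, ATCG01070 and ATCG01080. ATCG00270 had 23443, 17030 and 19563 in HI28, against 10509, 6880, 3538 and 6203 in CI28 (1.65, SE 0.31, adjusted p = 0.028, limma). None was called without ddm1 CI28 replicate 2 or without any 1 of the 3 HI28 libraries.

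Without heat, few of these transcripts were called between genotypes. For poliv against wt, limma called 0 IDs in CT7 (of 100, background 0.159%, 4 at an unadjusted p under 0.05), 0 in CS7 (of 115, background 0.981%, 18), 0 in CI28 (of 94, background 0.164%, 3) and 0 in CS28 (of 115, background 0.404%, 28), and edgeR called 0 in each. For ddm1 against wt in CT7, limma and edgeR called 0 of 101 (background 6.68%, 4 at an unadjusted p under 0.05), and limma called 5, all higher, without wt CT7 replicate 1, where 6.88% of all features were higher.

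In ddm1 stem cell nuclei without heat, small differences were frequent, and their direction depended on the scaling. In CS7 against wt, 1 of 115 IDs was higher and 0 lower, where 13% of all features were higher and 4.75% lower, and the 1 was the swinging ATCG01170 (1.098, SE 0.25, adjusted p = 0.0039, limma). The median was 0.39 against 0.06 over all features. Without the fold threshold 58 IDs were higher and 0 lower, where 16.7% of all features were higher and 8.49% lower. Nuclear-gene scaling placed the chloroplast median at 0.03 and that of all features at -0.29, with 0 IDs called. Total-count scaling placed the chloroplast median at -0.41 and that of all features at -0.73, and the 1 ID called was lower. Relative to all features the chloroplast median was 0.33 as deposited, 0.32 with nuclear-gene scaling and 0.32 with total-count scaling. The share of counts was lower in ddm1, at 20.8%, 25.4% and 28.05% in ddm1 CS7 against 26.4%, 27.9% and 35.5% in wt CS7, with overlap.

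In CS28, ddm1 against wt, 3 of 113 IDs were higher and 1 lower, where 9.21% of all features were higher and 5.05% lower. ATCG00340 had 7689, 8446, 7003 and 6785 in ddm1 CS28, against 3588, 3680, 3270 and 3353 in wt CS28, without overlap (1.103, SE 0.08, adjusted p = 3e-07, limma). ATCG00690 had 104, 126, 77.2 and 82.9 in ddm1 CS28, against 229, 199, 323 and 251 in wt CS28 (-1.35, SE 0.19, adjusted p = 9.4e-05, limma). The others were ATCG00390 and ATCG00720, both higher. In CI28, ddm1 against wt, ATCG00560 was the only ID called of 96 (background 10.3%), with 62.4, 74.4, 104 and 43.2 in ddm1 CI28, against 32.3, 26.3 and 32.4 in wt CI28 (1.14, SE 0.29, adjusted p = 0.022, limma). It was not called without ddm1 CI28 replicate 1 or 2.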

How the data were processed

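The study's mRNA libraries, prepared by Smart-seq methods with poly(A) priming and read as single reads of 100 bases, were processed by the authors with bedtools 2.27, a nextflow RNA-seq pipeline and DESeq2 over TAIR10 genes and transposable elements. The aligner, the counter and the strand setting are not given in the sources used here. The deposited values are normalized counts, that is, a read signal per feature divided by 1 size factor per library by the authors. All 128 library columns were used, and 52 columns of the authors' group means and standard deviations were not. Every value above 0 (100%) was a whole multiple, within 0.01, of the library's smallest step, which gave back 1853992 to 17611137 reads per library.

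Here, features that averaged 5 or more in the libraries fitted went into limma 3.58.1 (R 4.3.3, trended and robust empirical Bayes) on log2(normalized count + 1), 1 fit per comparison, with Benjamini-Hochberg adjustment over all features tested. The threshold for a call was an adjusted p under 0.05 together with an absolute log2 fold change over 1. Alternatives were a pseudocount of 5, no filter, scaling on nuclear genes or on the total count, edgeR 4.0.16 (quasi-likelihood, TMM) on the recovered reads, a replicate block, and leaving out each library in groups of 3 or 4. The procedure was checked on simulated counts. The replicate numbers come from the labels, which do not say what they share. In wt HI28 and CI28 libraries of the same number deviated together in all 3 pairs (r of at least 0.11, mean 0.14), and the blocked value is given there.

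The chloroplast IDs and the gene lists were chosen with earlier results of these data known. IDs to name were, per comparison, up to 4 called with the largest increase and up to 4 with the largest decrease, with fewer printed where IDs have no name. Of nuclear lists, up to 3 in each direction were named. A list of chloroplast genes by name, and one by counts per length, could not be used because the codes are not paired with names. Results of 1 further transcript are not reported here. The 5 transcripts named from the reference, ATCG00300, ATCG00830, ATCG00720 in seedlings and the pairs of swinging IDs were chosen after their values were seen. Software besides R was python 3.11.15, pandas 2.3.3 and matplotlib 3.10.9.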

Additional observations from a re-analysis of the deposited data

Results flagged for a closer look

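Within groups of 4 to 10 libraries, 132 sets of values of the named transcripts and of the chloroplast share were searched for a highest or lowest library standing far from the rest, and 7 had one. Chance flags about 1 in 20 groups, so 7 of 132 is near the number that chance alone would give. In poliv HT7, replicate 1 had a chloroplast share of 11.05%, against 3.62%, 3.70% and 3.97% in the other libraries. ClpP (ATCG00670) was lowest in replicate 2 of wt CS28, at 1618 normalized counts, where the group median was 1830. The other 5 belonged to L2 (ATCG01310), the transcript whose gene is in the genome more than once. Its highest libraries were replicate 3 of ddm1 CI28 at 1041 (median 37.7), replicate 6 of ddm1 HS7 at 8721 (median 5370), replicate 1 of poliv HT7 at 271.5 (median 22.3), replicate 1 of wt CT7 at 3828 (median 207.2) and replicate 1 of wt HT7 at 396.9 (median 61.1).

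The heat effect differed between ddm1 and wt stem cell nuclei by a test of the difference itself, in limma, with 23 IDs called, all more strongly lowered or less raised in ddm1.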

How the results depend on the processing

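With scaling on nuclear genes the count of called IDs was 39 in wt HS7 against CS7 (61 as deposited), 21 in poliv HT7 against CT7 (36), 2 in poliv HI28 against CI28 (4), 0 in ddm1 CS7 against wt (1), 0 in ddm1 CI28 against wt (1) and 1 in the seedling difference of ddm1 and wt (0). With scaling on the total count it was 34 in wt HS7 against CS7, 2 in poliv HI28 against CI28, 0 in ddm1 CI28 against wt, 1 in the seedling difference of ddm1 and wt and 5 in the stem cell difference of ddm1 and wt (23), where edgeR gave 11. The chloroplast median reversed to 0.65 and 0.44 in wt HT7 against CT7 and to 0.55 and 0.22 in ddm1 HT7 against CT7, under nuclear-gene and total-count scaling in that order, and to -0.41 in ddm1 CS7 against wt under total-count scaling. Both scalings moved the median of all features too, by construction. Without a filter the count was 9 in poliv HI28 against CI28, 5 in ddm1 HI28 against CI28 (3), 1 in poliv HS28 against CS28 (0), 1 in ddm1 CT7 against wt (0) and 2 in poliv CS28 against wt (0). A pseudocount of 5 gave 1 in the seedling difference of ddm1 and wt. Without the 20 swinging IDs, an alternative chosen after seeing the data, ddm1 CS7 against wt gave 0, and every other count stayed within 1.5 times.

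With the replicate block the count was 3 in wt HI28 against CI28 (0), where libraries of the same number deviated together. The labels give no more than a number in any group. Elsewhere the block gave 1 in poliv CI28 against wt (0), 1 in poliv CS28 against wt (0) and counts within 1.5 times in all others. Leaving out 1 library at a time gave 31 to 43 called IDs in wt HT7 against CT7, 26 to 57 in poliv, 39 to 44 in ddm1, 0 to 10 in poliv HI28 against CI28, 0 to 3 in ddm1, 0 to 1 in wt HS28 against CS28, 0 to 2 in poliv and 0 to 15 in ddm1. Against wt it gave 0 to 5 in ddm1 CT7, 0 to 1 in poliv CI28, 0 to 1 in ddm1 CI28, 0 to 2 in poliv CS28 and 4 to 6 in ddm1 CS28, and 0 to 3 in the seedling difference of ddm1 and wt. The 5 and the 3 came without wt CT7 replicate 1. The causes were not tested.

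Of 59 fold changes of single IDs, none changed sign under the alternatives. No longer called were 11 with nuclear-gene scaling, 12 with total-count scaling, 3 with edgeR, 2 with the replicate block and 1 without a filter. Depth limits the IDs with low counts, and genes with identical copies limit what a count of 1 ID means.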

Other observations

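Among 24 genes of plastid transcription, 7 were higher and 4 lower in wt HN7 against CN7, and 6 were higher and 8 lower in wt HT7 against CT7. Among 21 genes of plastid RNA processing and decay, 6 were higher and 2 lower in HN7 against CN7, and 4 were higher and 5 lower in HT7 against CT7. The shares of all features called in the same comparisons are given above, and whether these lists differed from them was not tested. Members of these lists had these values. FLN1, a fructokinase-like protein of the plastid transcription complex, averaged 331 normalized counts in HN7 and 20.2 in CN7 (log2 fold change 3.93, SE 0.29, adjusted p = 1.3e-11, limma). RPOTmp averaged 541 in HN7 and 87.1 in CN7 (2.66, SE 0.20, adjusted p = 2.3e-11, limma), and SIG5 averaged 9.41 in HN7 and 108.8 in CN7 (-4.08, SE 0.61, adjusted p = 4.6e-06). In seedlings RPOTp, the plastid phage-type polymerase, averaged 190.1 in HT7 and 31.2 in CT7 (2.67, SE 0.32, adjusted p = 1.8e-05, limma). HCF173, needed for translation of a photosystem II core protein, averaged 37.4 in HT7 and 1404 in CT7 (-5.15, SE 0.24, adjusted p = 8.6e-09, limma), and the RNA-binding protein CSP41B averaged 1004 in HT7 and 20379 in CT7 (-4.40, SE 0.29, adjusted p = 1.1e-07).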
